A study of Drosophila simulans and Drosophila kikkawai and Drosophila takahashii with 176 samples.

Results

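Second copies of proteasome subunits, encoded by 10 genes of Drosophila melanogaster, were followed in the testis and in the accessory gland (AG), the male gland that secretes most of the seminal fluid proteins. They were taken by their symbols and FlyBase gene identifiers and are 10 of the 17727 genes in the D. melanogaster tables. They comprise Prosalpha3T, Prosalpha4T1, Prosalpha4T2 and Prosalpha6T of the alpha ring, Prosbeta2R1 and Prosbeta5R1 of the beta ring, Rpt3R, Rpt4R and Rpt6R of the ATPase ring, and Rpn12R of the lid. Each has a parent subunit from which its name derives, and Prosalpha4 is the parent of both Prosalpha4T1 and Prosalpha4T2, so that there are 9 parents. The wider study sequenced poly(A) RNA from both organs of 11 Drosophila species. The D. melanogaster samples used here are 2 testis libraries of strain ED10, 2 testis libraries of the reference strain y; cn bw sp, 2 AG libraries of ED10 and 2 AG libraries of y; cn bw sp. Each library was made from pooled adult males, and no treatment was applied. ED10 is a non-reference strain, and whole organs were used, so that fewer cells of a type and less RNA per cell cannot be told apart. The 2 strains were dissected by different people and in part run on different sequencers, and strain cannot be told apart from these.

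The proteasome is the protease that degrades ubiquitin-tagged proteins. Its 20S core is a barrel of alpha rings, which gate the entrance, around beta rings, which hold the peptidase sites. The 19S cap has a base with ATPases (Rpt subunits) that unfold the substrate and a lid of Rpn subunits that handles the ubiquitin chain. In Drosophila several subunits have a second gene used in the male germline, where cells go through meiosis, spermatid elongation and individualization, the step in which spermatids shed their excess cytoplasm, and loss of Prosalpha6T is known to make males sterile.

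Levels are the authors' TPM values, a transcript abundance scaled by transcript length and by library, so that genes can be set beside each other. The totals per library were not equal, at 1070170 to 1275870 TPM in the testis and 1245350 to 1959870 TPM in the AG, read counts were not used here, and the depth behind each value is unknown. Differences between organs are testis minus AG on the log2(TPM + 1) scale, which understates the change of genes that are low in the AG, and were tested with limma over 17124 genes with Benjamini-Hochberg adjustment and a threshold of 0.05. Testis and AG values come from separate tables, and the methods say that the D. melanogaster testis estimates were taken over from an earlier study that used the same methods, so that organ and table cannot be told apart. The study gives its libraries as biological replicates, and p-values measure the spread between them.

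The tissue labels were checked against marker genes. All 7 AG secretion genes, such as Acp26Aa and SP, were lower in the testis, with differences of -9.66 to -8.53, and all 10 germline genes, such as bam, aly and Mst77F, were higher in the testis. The AG libraries of the 2 strains did not carry the same amount of germline marker RNA. The 10 germline markers summed to 4.06 and 2.73 TPM in ED10 AGs and to 235 and 415 TPM in reference strain AGs. In the other direction the AG secretion genes summed to 123 and 18.6 TPM in ED10 testes and to 1325 and 3175 TPM in reference strain testes. The organ differences are therefore also given for ED10 alone.

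All 10 copies were higher in the testis. Every testis library exceeded every AG library for each of them, which was so for 41.4% of all genes tested. The calls were made at adjusted p under 0.05 in limma for 10 of 10 copies, against 41.9% of all genes, and with a difference of at least 3 on the log2 scale for 10 of 10, against 17.8% of all genes. The copies were listed as subunits with a testis form, with earlier results of these data known. These counts therefore describe the list and are not independent evidence. The median difference over the copies was 6.01, beside a median of 0.45 over all genes, and the single differences ran from 4.66 for Rpt3R to 6.53 for Rpn12R. With ED10 libraries alone, all 10 copies were again called, with differences of 5.03 to 7.93 at limma adjusted p from 0.000402 to 0.00345, and with reference strain libraries alone their differences ran from 3.69 to 5.92 and all were called too.

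**Figure D1:**
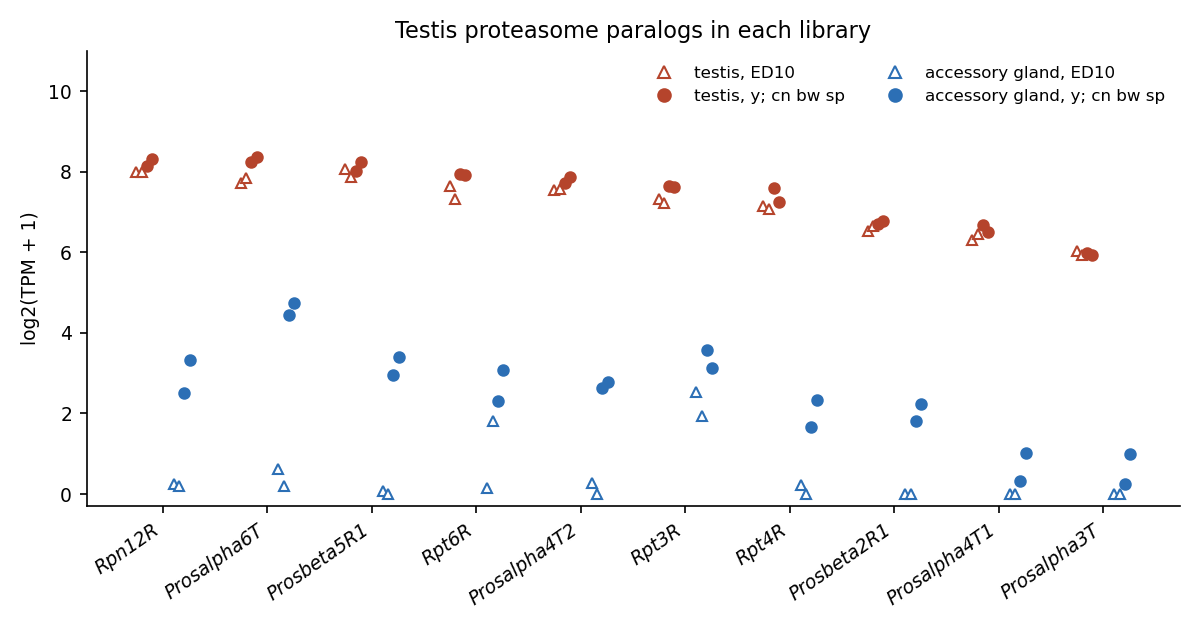
Level of each copy in each library, as log2(TPM + 1), in order of the testis mean, with testis libraries to the left of AG libraries, open triangles for ED10 and filled circles for the reference strain. Testis points lie between 59.6 and 327 TPM, and the AG points of ED10 lie near 0 for all copies but Rpt3R and, in 1 library, Rpt6R.

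In the alpha ring, Prosalpha3T (FBgn0261395, chr3R:31122527-31123415 in BDGP6) was the lowest copy in the testis. It had 64.0 and 59.6 TPM in ED10 testes and 62.3 and 59.7 TPM in reference strain testes, against 0 and 0 TPM in ED10 AGs and 0.195 and 0.989 TPM in reference strain AGs. The 4 testis libraries differed by a few TPM only, with a mean of 61.4 ± 2.12 TPM (SD, n = 4). The difference was 5.65 ± 0.30 (SE, limma adjusted p = 8.9e-06).

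The parent Prosalpha4 has a pair of copies, which lie on different chromosome arms. Prosalpha4T1 (FBgn0265606, chr3R:20748184-20749074) had 78.2 and 86.6 TPM in ED10 testes and 101 and 89.0 TPM in reference strain testes, against 0 and 0 TPM in ED10 AGs and 0.245 and 1.02 TPM in reference strain AGs. Prosalpha4T2 (FBgn0017556, chr2R:24500780-24502277) had 186 and 189 TPM in ED10 testes and 210.0 and 231 TPM in reference strain testes, against 0.216 and 0 TPM in ED10 AGs and 5.18 and 5.91 TPM in reference strain AGs. Prosalpha4T2 was thus above Prosalpha4T1 in all 4 testis libraries. Their differences were 6.15 ± 0.30 for Prosalpha4T1 and 6.25 ± 0.67 for Prosalpha4T2 (SE).

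Prosalpha6T (FBgn0032492, chr2L:13232039-13233058) stood out for its AG values. It had 209 and 228 TPM in ED10 testes and 299 and 327 TPM in reference strain testes, against 0.536 and 0.157 TPM in ED10 AGs and 20.9 and 25.9 TPM in reference strain AGs. The highest AG value of any other copy was 10.8 TPM, for Rpt3R. Its organ difference was 5.53 ± 1.06 (SE, limma adjusted p = 0.00231), with 7.36 in ED10 alone and 3.69 in the reference strain alone.

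The beta-ring copies belong to catalytic positions. The parent Prosbeta2 has the trypsin-like site and the parent Prosbeta5 the chymotrypsin-like site. Prosbeta2R1 (FBgn0029812, chrX:5808954-5810158) had 92.0 and 100.3 TPM in ED10 testes and 104 and 108 TPM in reference strain testes, against 0 and 0 TPM in ED10 AGs and 2.54 and 3.72 TPM in reference strain AGs. Prosbeta5R1 (FBgn0034842, chr2R:23308654-23309816) had 267 and 232 TPM in ED10 testes and 256 and 300.4 TPM in reference strain testes, against 0.0473 and 0 TPM in ED10 AGs and 6.76 and 9.51 TPM in reference strain AGs. Prosbeta5R1 was above Prosbeta2R1 in all 4 testis libraries. The organ differences were 5.65 ± 0.55 for Prosbeta2R1 and 6.44 ± 0.80 for Prosbeta5R1 (SE).

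Among the ATPases of the 19S base, Rpt3R (FBgn0037742, chr3R:9754735-9756510) was the copy with the most RNA in ED10 AGs. It had 158 and 147.5 TPM in ED10 testes and 199 and 197 TPM in reference strain testes, against 4.77 and 2.81 TPM in ED10 AGs and 10.8 and 7.70 TPM in reference strain AGs. Its ED10 AG mean was 2.48% of the ED10 testis mean, whereas the median over the 10 copies was 0.0600%. Rpt3R had the smallest organ difference, 4.66 ± 0.37 (SE, limma adjusted p = 1.89e-05). Its annotated span shares 20 bases with that of Alg12 on the opposite strand. Alg12 averaged 23.2 TPM in the AG, and the part of the shared bases in the AG value of Rpt3R was not tested.

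Rpt4R (FBgn0036224, chr3L:11941912-11943485) had 141 and 134.3 TPM in ED10 testes and 193 and 151 TPM in reference strain testes, against 0.172 and 0 TPM in ED10 AGs and 2.19 and 4.01 TPM in reference strain AGs. Rpt6R (FBgn0039788, chr3R:30582198-30583697) had 199.5 and 159 TPM in ED10 testes and 244 and 241 TPM in reference strain testes, against 0.114 and 2.49 TPM in ED10 AGs and 3.99 and 7.39 TPM in reference strain AGs. The 2 ED10 AG libraries disagreed for Rpt6R, since 1 was near 0 and the other was a little below the lower ED10 AG value of Rpt3R. The organ differences were 6.21 ± 0.53 for Rpt4R and 5.87 ± 0.57 for Rpt6R (SE).

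Rpn12R (FBgn0036465, chr3L:15041631-15042570), the copy of a lid subunit, had the highest testis mean and the largest difference. It had 255 and 253 TPM in ED10 testes and 280.3 and 316 TPM in reference strain testes, against 0.199 and 0.155 TPM in ED10 AGs and 4.67 and 9.10 TPM in reference strain AGs. The difference was 6.53 ± 0.71 (SE, limma adjusted p = 9.11e-05), and 517 of the 17124 genes tested had a larger one. Rpn12R lies within the transcribed span of Sytbeta on the same strand, which averaged 0.851 TPM in the testis, and Prosalpha4T1 lies within that of CG42322 on the opposite strand, which averaged 1.80 TPM there.

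In the testis the order of the copies was clear only in part. Rpn12R (276 ± 29.2 TPM), Prosalpha6T (266 ± 56.4 TPM) and Prosbeta5R1 (264 ± 28.3 TPM) led (SD, n = 4), and these 3 could not be ordered, because each neighbour was higher in 2 of 4 libraries. Rpt6R (211 ± 40.1 TPM) and Prosalpha4T2 (204 ± 20.9 TPM) followed and also did not separate, with Rpt6R higher in 3 of 4 libraries. Prosbeta5R1 was above Rpt6R in 4 of 4 libraries. From Prosalpha4T2 down, through Rpt3R (175 ± 26.4 TPM), Rpt4R (155 ± 26.4 TPM), Prosbeta2R1 (101 ± 6.70 TPM) and Prosalpha4T1 (88.7 ± 9.46 TPM) to Prosalpha3T, each copy was higher than the next in 4 of 4 libraries. No test is given for this order, which is a description. The 10 copies summed to 1649 and 1589.9 TPM in ED10 testes and 1948 and 2020.1 TPM in reference strain testes, against 6.05 and 5.62 TPM in ED10 AGs and 57.5 and 75.3 TPM in reference strain AGs.

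The parent subunits were not higher in the testis as a group. Of the 9, only Prosalpha3 was higher in the testis (41.9% of all genes tested were higher) and 2, Rpt3 and Rpn12, were lower (11.2% of all genes tested were lower), and 6 did not pass the test. Their median difference was -0.21 and the range was -1.26 for Rpn12 to 0.91 for Prosalpha3. Prosalpha3 had 233 and 259.5 TPM in ED10 testes and 307 and 239 TPM in reference strain testes, against 163 and 152 TPM in ED10 AGs and 97.3 and 146.7 TPM in reference strain AGs, which do not overlap (0.91 ± 0.27 SE, limma adjusted p = 0.0206). Rpn12 had 29.5 and 53.6 TPM in ED10 testes and 43.2 and 30.7 TPM in reference strain testes, against 106 and 87.4 TPM in ED10 AGs and 70.7 and 114 TPM in reference strain AGs, which do not overlap (limma adjusted p = 0.00526). Rpt3 had 22.5 and 46.4 TPM in ED10 testes and 27.1 and 21.8 TPM in reference strain testes, against 78.3 and 66.4 TPM in ED10 AGs and 34.6 and 82.2 TPM in reference strain AGs, which overlap, since the highest testis value is above the lowest AG value. Its difference was -1.12 ± 0.37 (SE, limma adjusted p = 0.0314). For the other 6 parents the organs overlapped or the difference did not pass the test: Prosbeta5 was at -0.86 ± 0.32, Prosalpha4 at -0.53 ± 0.27, Rpt4 at -0.21 ± 0.43, Prosalpha6 at -0.08 ± 0.34, Prosbeta2 at -0.03 ± 0.35 and Rpt6 at 0.39 ± 0.31 (SE). Most of Rpt6 is overlapped by CG1801 on the opposite strand, which averaged 54.8 TPM in the testis, and whether the estimates used strand is not given in the sources used here. The parent calls were not firm, since the number called ranged from 0 to 5 over the alternatives tried and was 0 within either strain alone.

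**Figure D2:**
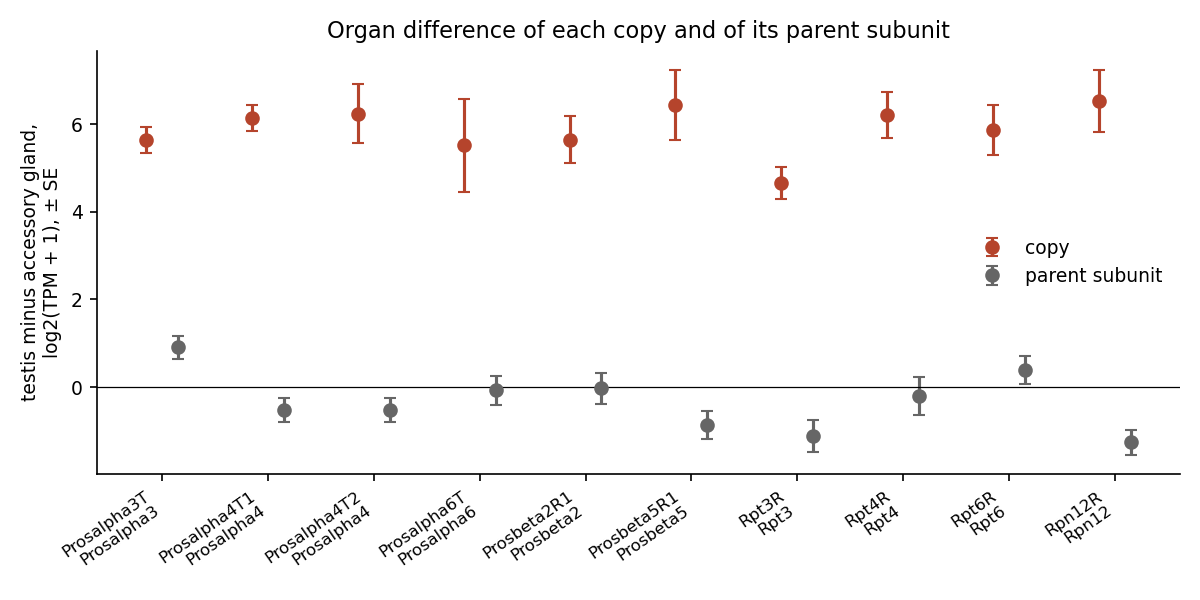
Difference between testis and AG on the log2(TPM + 1) scale, with its standard error from limma, for each copy and, to its right, for its parent subunit. Copies lie between 4.66 and 6.53 and parents between -1.26 and 0.91; Prosalpha4 is drawn for both of its copies.

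Within a library the share of a copy in the sum of copy and parent does not depend on how the library was scaled. This share was higher in every testis library than in every AG library in all 10 pairs. Each two-sided exact permutation test gave p = 0.0286, the smallest that 4 against 4 libraries allow. The copies were listed as testis forms and differed between organs by far more than their parents. The separation of the shares follows largely from that and is not independent evidence. The pairs of Prosalpha4T1 and Prosalpha4T2 also share their parent. Rpn12R made up 87.5% ± 3.80 of its pair in the testis (SD, n = 4), against 0.176% to 7.41% in the AG, and Rpt3R 85.4% ± 6.32 in the testis, against 4.07% to 23.8% in the AG. At the other end Prosalpha3T made up 19.3% ± 1.98 in the testis, against 0% to 0.670% in the AG. Prosalpha3 was thus the parent that stayed above its copy in all 4 testis libraries.

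The other 9 copies exceeded their parents in at least 3 testis libraries. Prosbeta2R1 was about level with Prosbeta2, at 51.7% ± 6.57 of the pair in the testis, against 0% to 4.53% in the AG, and was the higher one in 3 of 4 testis libraries. For the remaining copies the copy was higher in 4 of 4 testis libraries, and the ratio of the testis means ran from 1.34 for Prosalpha4T1 to 7.03 for Rpn12R. In the AG no copy exceeded its parent in any library. For Prosalpha6T the AG shares were 0.570% and 0.151% in ED10 and 30.3% and 22.8% in the reference strain.

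**Figure D3:**
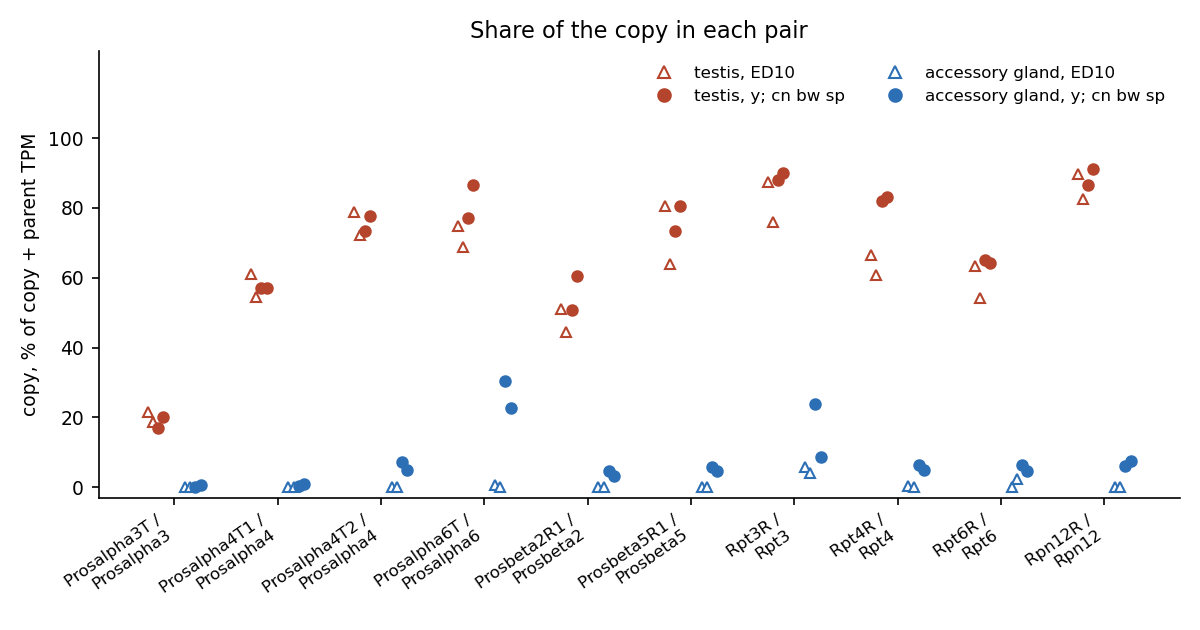
Share of the copy in the summed TPM of copy and parent, in percent, for each pair and library, with testis libraries left of AG libraries, open triangles for ED10 and filled circles for the reference strain. All testis points lie above all AG points of the same pair, from 16.9% for Prosalpha3T to 91.1% for Rpn12R.

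The parent and all of its listed copies were also added up at each position, to set the sums beside subunits with no copy. The sums were formed after the values had been seen and carry no test. For the 5 positions of the 20S core, which also include Prosbeta2R2 and Prosbeta5R2, the summed testis means ran from 310.4 to 550.4 TPM, beside 245 to 422 TPM for 7 core subunits with no copy listed, and only the Prosbeta5 sum lay above that range. Prosalpha1, Prosbeta4 and Rpn13, whose copies are not among the 10, were left out of these sums. The parents alone ran from 66.3 to 259.5 TPM in the testis. In the AG the sums ran from 95.1 to 168 TPM, beside 92.5 to 140.1 TPM for the 7 core subunits.

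In the 19S particle the 4 positions summed to between 205 and 339 TPM in the testis, and the 14 subunits with no copy listed ran from 68.9 to 361 TPM. The ratio of the testis mean to the AG mean had a median of 3.19 over the 9 positions when copies were counted and of 0.878 for the parents alone, against 2.30 over the 21 subunits with no copy. These sets hold the particles in unlike proportions. Within the 20S core the medians were 3.27 with copies counted and 2.65 for subunits with no copy. Within the 19S particle they were 3.17 and 1.94. Copies held from 19.1% of the testis sum at the Prosalpha3 position to 87.6% at the Rpn12 position. The median ratio of 3.19 stayed between 2.80 and 3.61 when each library was left out or either strain was used alone. It depends on how the libraries are scaled, and other scalings were not tried for it.

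**Figure D4:**
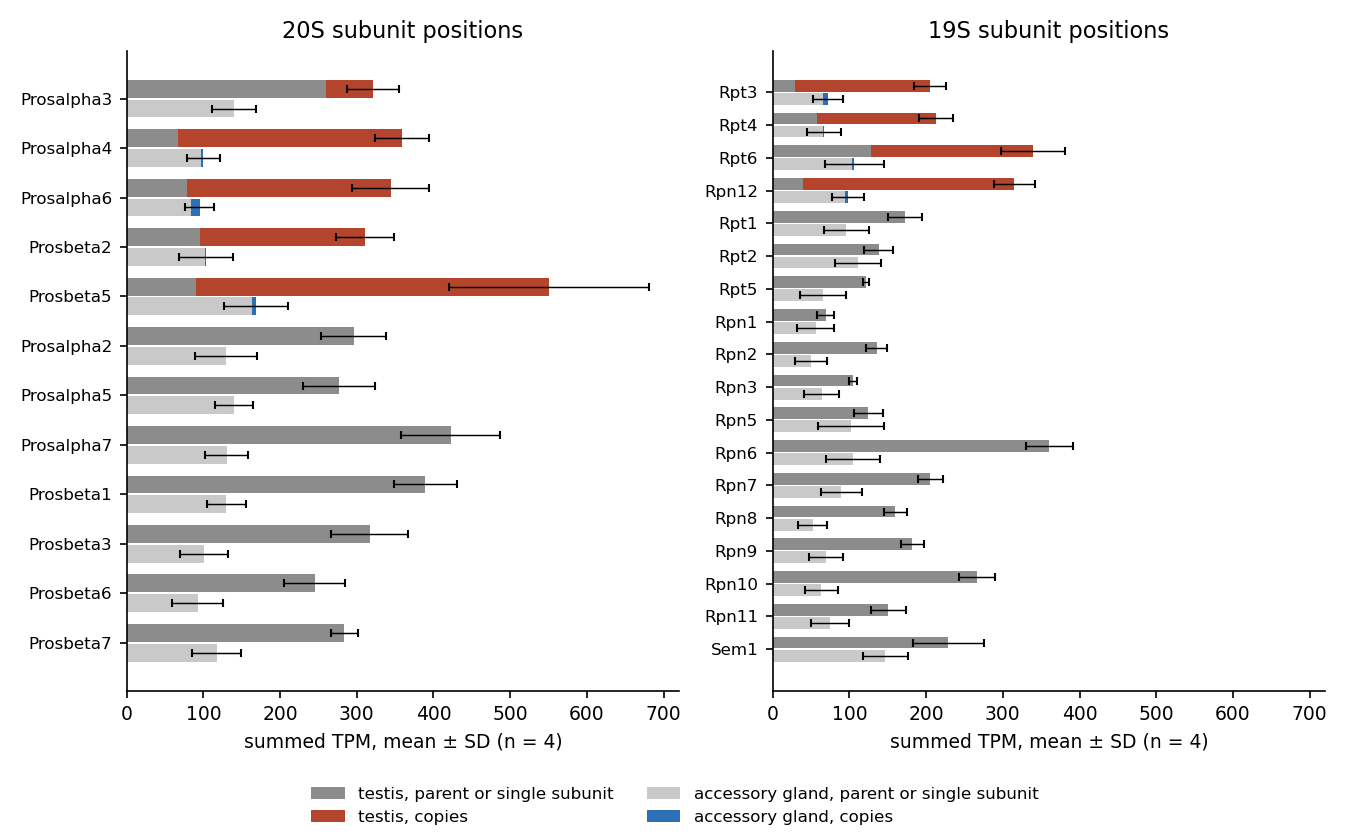
Mean summed TPM (± SD, n = 4) at each subunit position of the 20S core and the 19S particle, with the testis bar above the AG bar; coloured parts are copies and grey parts the parent or single subunit. Sums at the Prosalpha4, Prosalpha6, Prosbeta2, Prosbeta5, Rpt3, Rpt4, Rpt6 and Rpn12 positions consist mostly of copies in the testis and mostly of the parent in the AG.

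The rest of the complex gives the background to the parents. Of 24 subunits outside the member positions, 17 were higher in the testis, none was lower at the threshold (41.9% and 11.2% of all genes were higher and lower), and 7 did not pass the test. Some of these calls depended on the processing. With median-ratio scaling Prosalpha5 and Rpt1 did not pass, whereas after rescaling to the same total Rpt5 and Sem1 passed as well. In ED10 alone Prosalpha2, Prosalpha5, Prosbeta6 and Rpt1 did not pass, whereas Rpt5 did. In the reference strain alone Rpt1, Rpn2, Rpn7, Rpn9 and Rpn11 did not pass. The median difference of the 24 subunits was 1.28, from -0.30 for Prosbeta4 to 2.12 for Rpn10, a ubiquitin receptor. Prosbeta4 itself has 2 testis copies, Prosbeta4R1 and Prosbeta4R2, with differences of 6.83 and 6.15. Among the 6 further copies, Prosbeta2R2, Prosbeta4R1, Prosbeta4R2, Prosbeta5R2 and Rpn13R were higher by at least 5.02, and Prosalpha1R by 1.73. The values of Prosalpha1R followed those of Prosalpha1 closely in every library, at 241 and 237 TPM in 1 ED10 testis, and reads of this pair may be shared, so that both are uncertain.

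Of 7 regulators and assembly factors 5 were higher, beside 41.9% of all genes, with the largest differences for Uch-L5R (5.93 ± 0.59), Uch-L5 (4.11 ± 0.33), a deubiquitinase of the cap, and PI31 (3.04 ± 0.30), a proteasome-binding protein (SE). The 20S activator REG, at 0.03 ± 0.25, did not pass the test. Of 11 genes listed around the caspases, ubiquitin ligases and individualization of spermatids 7 were higher, beside 41.9% of all genes. They were led by soti (7.24 ± 0.83) and gudu (6.51 ± 0.46), whereas Bruce, Dark, Drice and Roc1b did not pass the test. Uch-L5R, klhl10, soti and gudu were at or near 0 in ED10 AGs.

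The strains were compared for the 10 copies in each organ. In the testis none of the 10 was called (4.29% of all genes were), and 0 of 10 had an unadjusted p under 0.05. The estimated differences, ED10 minus reference strain, ran from -0.52 for Prosalpha6T to 0.02 for Prosalpha3T, and 9 of 10 were negative. With 2 libraries per strain, the lack of a call does not show that the strains were equal. Another copy, Prosbeta5R2, did differ, with 95.5 and 84.9 TPM in ED10 testes and 319.9 and 284 TPM in reference strain testes (difference -1.73 ± 0.31 SE, limma adjusted p = 0.0348).

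In the AG 6 of 10 copies were lower in ED10 than in the reference strain, beside 8.68% of all genes, and none was higher, beside 1.65% of all genes. These were Prosalpha6T (-4.19 ± 0.26), Prosbeta5R1 (-3.14 ± 0.26), Rpn12R (-2.69 ± 0.32), Prosalpha4T2 (-2.57 ± 0.24), Prosbeta2R1 (-2.03 ± 0.27) and Rpt4R (-1.89 ± 0.32, all SE). The other 4 had estimates of the same sign. Fewer copies were called without the ED10 libraries of the older sequencer, NG_z21 and NG_z22, which left a single ED10 library per organ. Leaving out either of them alone did not lower the number. The germline markers moved with them, as 3 of 10 markers, dj, Mst77F and betaTub85D, were lower in ED10 AGs and 9 of 10 had negative estimates. As a share of the testis mean of the same strain, the AG means of the copies had a median of 0.0600% in ED10 and 2.43% in the reference strain, and those of the germline markers 0.102% in ED10 and 1.52% in the reference strain. In the reference strain the share ran from 0.665% to 7.47% for the copies and from 0.549% to 3.61% for the markers. Prosalpha6T and Rpt3R, at 7.47% and 4.68%, were above every marker there. In ED10 only Rpt3R, at 2.48%, was above every marker. Prosalpha6T, at 0.159%, lay within the ED10 marker range of 0% to 1.07%. The part of testis RNA in the AG values was not tested.

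**Figure D5:**
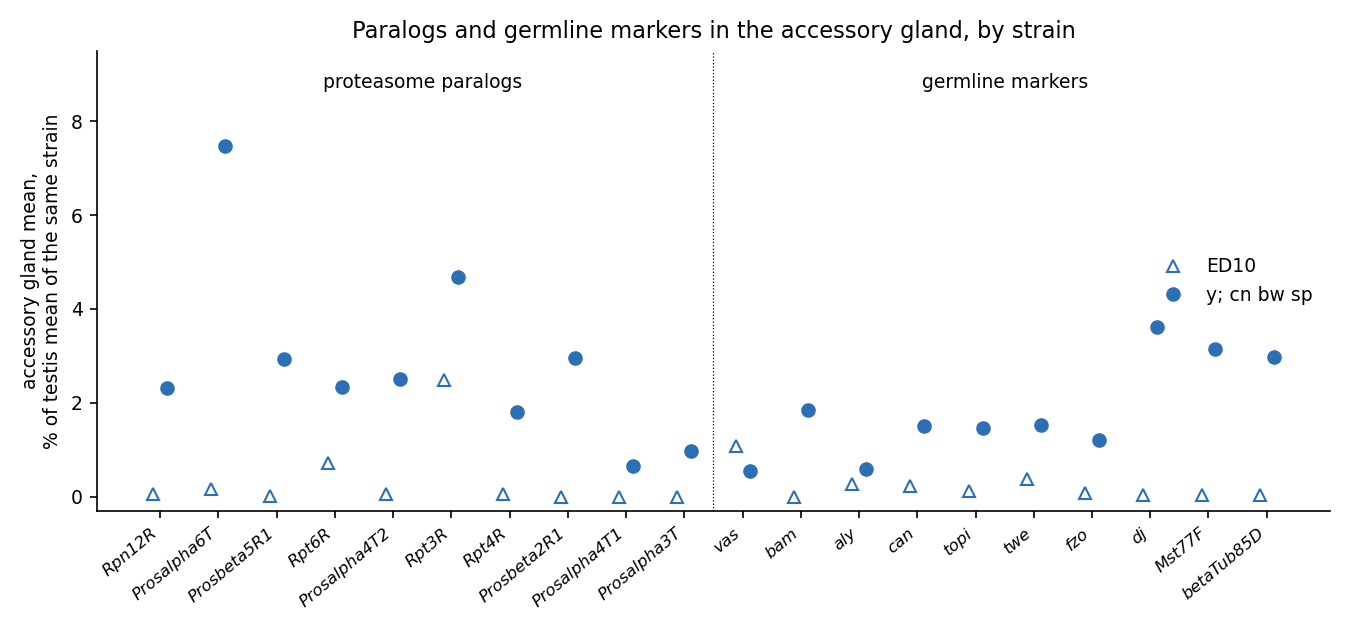
AG mean as a percentage of the testis mean of the same strain, for the 10 copies (left) and 10 germline markers (right), with open triangles for ED10 and filled circles for the reference strain. The copies have a median of 0.0600% in ED10 and 2.43% in the reference strain, and the markers 0.102% in ED10 and 1.52% in the reference strain.

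The strain difference in the testis minus that in the AG was called for 5 of 10 copies, all positive (6.48% of all genes had a positive call). Prosalpha6T (3.67 ± 0.37), Prosbeta5R1 (2.99 ± 0.37), Rpn12R (2.46 ± 0.46), Prosalpha4T2 (2.34 ± 0.34) and Prosbeta2R1 (1.89 ± 0.38, all SE) passed. This count was 1 without testis G_108, 2 without testis G_110, 3 without each single ED10 library and 0 without NG_z21 and NG_z22 together.

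Gene structure and position were also set beside those of the parents. By the annotation, 4 of 10 copies (Prosalpha3T, Prosalpha4T1, Prosalpha6T and Rpn12R) have 1 exon, against 1 of 9 parents and 16.5% of protein-coding genes. Only Prosbeta2R1 is on the X chromosome, whereas 4 of 9 parents (Prosalpha4, Rpt3, Rpt4 and Rpt6) are, beside 15.6% of protein-coding genes. Their annotated coding lengths were 249 to 405 codons, beside 249 to 413 codons in the parents.

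The genes whose levels over the 8 libraries lay nearest to those of Rpn12R, by Euclidean distance on the log2(TPM + 1) scale, were CG10064 (0.22), Tengl1 (0.38), CG7366 (0.40), CG4520 (0.41) and Tektin-C (0.42). CG10064, the nearest of 17123 genes, had 248 and 245 TPM in ED10 testes and 281 and 309 TPM in reference strain testes, against 0.0826 and 0.0556 TPM in ED10 AGs and 4.61 and 8.62 TPM in reference strain AGs. The 8 libraries form 4 groups, so that this likeness rests mostly on the levels of the groups.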

How the data were processed

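RNA-seq of testes and AGs of D. melanogaster was used as 2 tables of 4 libraries each, 1 column per library with repeat runs merged and 0 per-sample columns left out; 20 tables of other species were not used here. The authors trimmed reads with Trimmomatic, aligned them with STAR 2.5.3 and estimated abundance with StringTie 1.3.4, by the submitters' processing notes, against release 6 of the genome; the paper's methods give a later StringTie version, and which one made these values is not settled. The testis estimates came from an earlier study with the same methods, and each organ has a table of its own. The deposited values are TPM, treated here as a signal because library totals were above the total that a TPM column has, and how transcripts were summed to genes is not given in the sources used here. Whether strand was used in the estimates is not given either. Gene names came from a table of FlyBase identifiers, and coordinates from a BDGP6 annotation, the same assembly.

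Values were tested with limma 3.58.1 in R 4.3.3 (moderated variance with a mean trend) on log2(TPM + 1), over genes above 0 in at least 1 library, with Benjamini-Hochberg adjustment. Strain contrasts used 1 fit with 4 groups of 2 libraries. Shares were tested by exact permutation (scipy 1.17.1). The limma step was tested on simulated data. Sums over positions were formed after the values had been seen. Alternatives were the pseudocount (0.1 or 5), a mean of at least 1, rescaling of each library to the same total, median-ratio scaling, no variance trend, strain as a covariate, protein-coding genes, each strain alone, and leaving out libraries. Every copy and parent is named, further copies are named, and other lists are given by counts with their extremes named; the 5 genes nearest to the copy with the highest testis mean are also named. The members and lists were chosen with earlier results of these data known. Of the marker lists, muscle (1 of 5 lower in testis), testis soma (4 of 5 higher), fat body (0 of 4 called) and duct and bulb (2 of 3 lower, 2 labels having no row) were also looked at. Protein and promoter sequences were not used here.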

Additional observations from a re-analysis of the deposited data

Results flagged for a closer look

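The strain difference in the testis minus that in the AG passed the test for 5 copies, with values of 2.34 for Prosalpha4T2, 3.67 for Prosalpha6T, 1.89 for Prosbeta2R1, 2.99 for Prosbeta5R1 and 2.46 for Rpn12R on the log2 scale, and also for Prosbeta4R2, at 2.95. In each of these 6 genes the ED10 AG libraries were below the y; cn bw sp AG libraries. On the log2(TPM + 1) scale the strains were closer together in the testis than in the AG. In TPM the strain means were further apart in the testis. For Prosalpha6T the ED10 and y; cn bw sp means were 218 and 313 TPM in the testis and 0.346 and 23.4 TPM in the AG. Of 50 groups of 4 libraries, 1 had a library far from the others: Prosbeta2R2 had 1.45 TPM in AG library G_111 of y; cn bw sp. Chance flags about 1 in 20 groups.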

How the results depend on the processing

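All 10 copies stayed called as higher in the testis, with a difference of at least 3, under all 19 alternatives, and none of their 190 single results lost its call or turned. Their median difference was 7.67 with a pseudocount of 0.1 and 4.53 with one of 5, and after rescaling each library to the same total their mean sum was 1507 TPM in the testis, where it was 1802 TPM as deposited, and 20.6 TPM in the AG, where it was 36.1 TPM. With single libraries left out the AG sum ran from 23.0 TPM (without G_111) to 46.3 TPM (without NG_z21). Rescaling moved the median of all genes to 0.57 and median-ratio scaling to 0.29, from 0.45. The number of parents called was 1 after rescaling, 0 in y; cn bw sp alone and 0 in ED10 alone, and 1 to 5 with single libraries left out (1 without testis G_108, 5 without AG G_109). Of 171 parent results, 17 lost a call, 7 gained one and 14 turned, and none of the turned values was called. Prosalpha6 turned to 0.28 after rescaling and 0.054 in y; cn bw sp alone, Prosbeta2 to 0.32 after rescaling, 0.015 without NG_z21 and NG_z22 and 0.15 in y; cn bw sp alone, and Rpt4 to 0.14 after rescaling and 0.038 in ED10 alone. With single libraries left out, Prosalpha6 ran from -0.32 to 0.11, Prosbeta2 from -0.31 to 0.15 and Rpt4 from -0.52 to 0.044. Copies called between strains in the AG numbered 2 without NG_z21 and NG_z22, and the difference of strain differences was called for 1 with a pseudocount of 5, 3 after rescaling, 0 without NG_z21 and NG_z22, and 1 to 6 with single libraries left out. The causes were not tested. With 1 library left out the exact test of a share cannot reach 0.05, and the share differences are values only; that of Prosalpha6T, testis minus AG, ran from 58.9 to 69.0 percentage points. No paired analysis was possible because the labels give testis and AG libraries no shared replicate number; only testis NG_z22 and AG NG_z21 share sequencing runs, and whether other libraries form pairs was not tested. The promoter motif comparison was not run.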
